A study of Homo sapiens with 4 samples.

Results

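The genes described here are ERBB3, a receptor of the epidermal growth factor (EGF) receptor family, with 7 genes for ligands of that family (NRG1, NRG2, TGFA, HBEGF, AREG, EREG and BTC) and 2 genes for inhibitors of it (ERRFI1 and LRIG1). They were chosen by name from the pathway, with earlier results of these data known. The study had already reported ERBB3 as up-regulated in HK-2 cells with induced PRCC-TFE3, so its call below is not independent of that choice. Values were summed per gene over the transcripts in the deposited tables. All 10 genes were present among 34080, and 9 of them passed the low-count filter that left 13569 genes to test. The cultures were of HK-2, a line immortalised from proximal tubule epithelium of a human kidney, which carries a Tet-On construct for HA-tagged PRCC-TFE3, the fusion protein of a subtype of renal cell carcinoma. Doxy(-) cultures received no doxycycline and Doxy(+) cultures received 0.2 microg/ml for 24 h, both in a medium with 1.5% fetal calf serum. Each group held 2 libraries of polyadenylated RNA. All 4 libraries carry the construct, and no HK-2 culture without it was analysed here, so doxycycline and the fusion protein cannot be told apart.

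ERBB receptors sit at the cell surface and signal as pairs. ERBB3 binds neuregulins, has little kinase activity of its own and passes the signal on through a partner, mostly ERBB2 or EGFR, to phosphoinositide 3-kinase. EGF-type ligands such as transforming growth factor alpha bind EGFR, some of them ERBB4 as well, and are made as membrane-anchored precursors that a sheddase of the ADAM family cuts free. The question asked of these data was which ligand transcripts the cells hold while ERBB3 is induced, and what happens to those transcripts after induction.

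The estimated counts on genes summed to between 12654233 and 15012743 per library. The 3 counts that a value of 0 still allows correspond to 0.204 to 0.233 CPM per library (CPM, counts scaled to 1000000 per library), for counting error only. TFE3, which shares sequence with the transgene, read 66.9 and 69.0 CPM in Doxy(-) against 367 and 322 CPM in Doxy(+), as the labels say. PRCC, the other gene of the fusion, read 50.2 and 47.2 CPM against 47.7 and 60.1 CPM, with overlap of the groups (log2 fold change 0.15, adjusted p = 0.413 in edgeR). Of the proximal tubule markers, 16 were measured and 9 stayed under 1 CPM in every library, among them the transporters SLC22A6 and SLC22A8, listed at 0 in all 4. PAX8, a renal epithelial transcription factor, stood at 565 to 605 CPM. Of the 8 proximal tubule markers tested, 3 were higher and 0 lower by adjusted p (9.76% and 9.53% of all genes). Among the 3 were the brush-border peptidases DPP4, with 172 and 180 CPM against 281 and 287 CPM, and MME. MME was called higher with 4.71 and 4.86 CPM against 12.6 and 11.2 CPM. SLC34A1 went the other way, from 1.32 and 1.09 CPM to 0.233 and 0.521 CPM, without overlap. Its log2 fold change was -1.64 and its adjusted p of 0.0779 in edgeR was over 0.05. Of 14 markers of other cell types, 9 stayed under 1 CPM throughout, and the sum of all 14 was 191 to 201 CPM in Doxy(-) and 211 to 213 CPM in Doxy(+), most of it from lumican (LUM). The 6 epithelial markers, mostly keratins, summed to 1377 to 1395 CPM in Doxy(-) and 1113 to 1118 CPM in Doxy(+). By adjusted p, 3 of 5 tested were lower (9.53% of all genes). The part of these markers in the results below was not tested, and in bulk RNA fewer cells of a type and less RNA per cell cannot be told apart.

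Doxy(+) cells held more ERBB3 and less of several ligand transcripts. A gene was called where the adjusted p (edgeR quasi-likelihood test, Benjamini-Hochberg over all genes tested) was under 0.05 and the log2 fold change of Doxy(+) over Doxy(-) exceeded 1 in size. Of the 9 members tested, 1 was called higher, ERBB3, where 1.50% of all genes tested were. A further 2 were called lower, EREG and HBEGF, where 0.479% of all genes were. By the adjusted p alone, 1 member was higher (9.76% of all genes) and 5 were lower (9.53% of all genes), the other 3 being NRG1, TGFA and ERRFI1. The median log2 fold change of the 9 members was -0.46, beside 0.00062 over all genes tested. The 2 groups did not overlap in CPM for 7 members, which also held for 61.1% of all genes. Replicates are separate libraries whose cultures the labels do not describe further, so p-values measure the spread between these libraries.

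**Figure D1:**
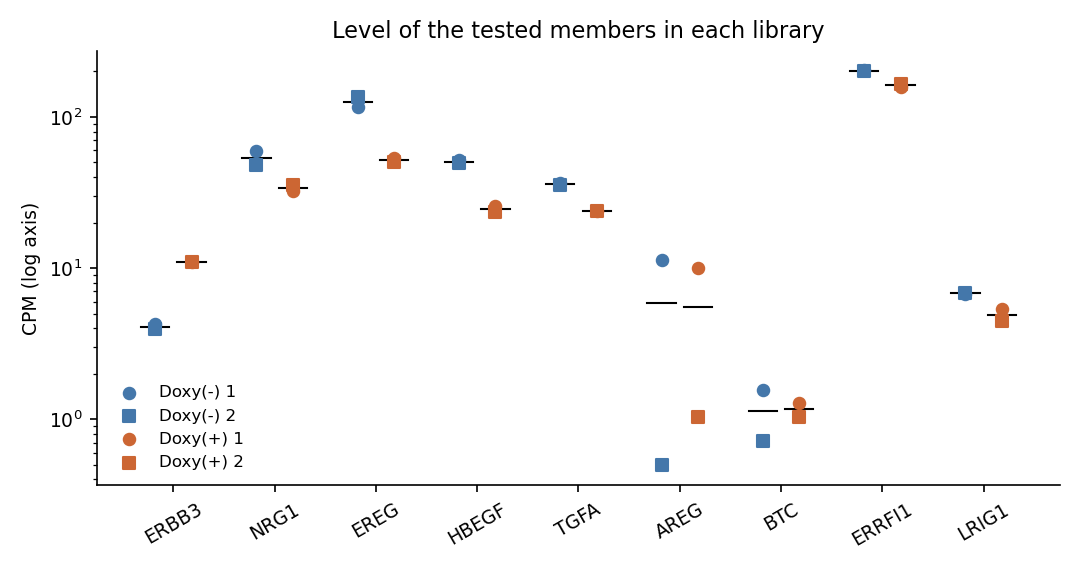
Level of each tested member in CPM on a log axis, with Doxy(-) libraries in blue and Doxy(+) libraries in orange, circles for libraries numbered 1, squares for libraries numbered 2 and a line at each group's mean. ERBB3 is higher in both Doxy(+) libraries, at 11 CPM in each, EREG and HBEGF are lower, and AREG splits by library number, with 11.3 and 0.494 CPM in Doxy(-).

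ERBB3 (ENSG00000065361, chr12:56076799-56103505, plus strand, hg38) read 4.26 and 3.93 CPM in the Doxy(-) libraries and 11 and 11 CPM in the Doxy(+) libraries. The groups did not overlap, and the gap was far wider than the spread within either group. In estimated counts these values were 54.9 and 57.7 against 142 and 148. The fold change was 2.68 (log2 fold change 1.42, standard error 0.149, adjusted p = 0.00208 in edgeR). Per length, ERBB3 stood at 4.23 ± 0.305 TPM (a length-scaled abundance that sums to 1000000 per library, SD, n = 2) in Doxy(-) and 11 ± 2.10 TPM in Doxy(+). It stayed scarcer than EGFR and ERBB2, since its TPM reached 5.52% and 6.03% of that of EGFR without doxycycline, and 13.8% and 17.8% with it. Against ERBB2, its main partner, the same figures were 12.6% and 14.8%, and 25.4% and 36.0%. These figures take all ERBB3 transcripts together, and a short one, ERBB3-202 (below), held 57.5% and 48.7% of the TPM in Doxy(+).

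The ERBB3 counts were divided over many of its 21 transcripts, and the division differed between libraries of the same group. ERBB3-201, the transcript for the full receptor of 1342 residues, had 17.4 and 3.51 estimated counts in Doxy(-) and 48.9 and 38.3 in Doxy(+). ERBB3-217, annotated as subject to nonsense-mediated decay, had counts only in the libraries numbered 1, at 13.3 and 29.9. Summed over the 2 protein-coding transcripts for at least 900 residues, ERBB3-201 and ERBB3-203, the counts were 17.4 and 8.64 in the Doxy(-) libraries against 48.9 and 67.2 after doxycycline. The groups did not overlap, and no test was run on this sum. Single forms were not resolved at this depth.

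The transcript with the highest mean count was a short one. ERBB3-202 (chr12:56080137-56085623) has 3 exons and codes for 183 residues, part of the extracellular region without the membrane span or the kinase domain. Its counts were 9.67 and 13.1 in Doxy(-) against 44.1 and 51.2 in Doxy(+), again without overlap. ERBB3-202 holds 444 bases that no other annotated ERBB3 transcript has in an exon. As a share of ERBB3 TPM it made up 29.1% and 31.0% without doxycycline and 57.5% and 48.7% with it, which short length favours. Without ERBB3-202 the gene kept 45.2 and 44.6 counts in the Doxy(-) libraries, against 97.6 and 96.9, and it stayed called (log2 fold change 1.18, adjusted p = 0.00829 in edgeR). The deposited counts are per transcript and give no read positions, so how many reads lay on those 444 bases is not known. Whether the counts on ERBB3-202 come from a finished short transcript or from unspliced RNA was not tested. The exons of ERBB3 share 31 bases with ENSG00000257411 on the same strand, which had 99.8 and 132 counts in the Doxy(-) libraries and 175 and 225 in the others, so reads there can be divided between the genes.

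**Figure D2:**
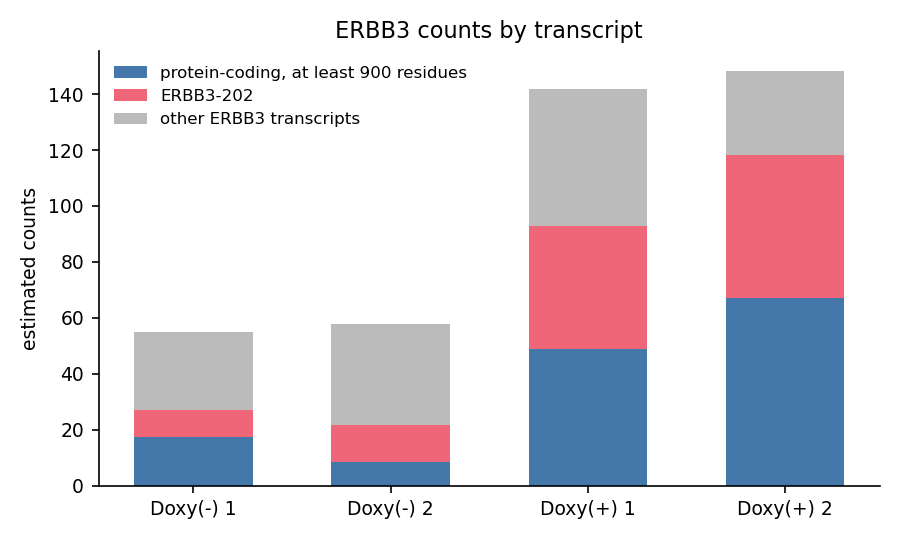
Estimated counts on ERBB3 in each library, stacked as the 2 protein-coding transcripts for at least 900 residues (blue), the short transcript ERBB3-202 (red) and all others, ERBB3-217 included (grey). Both the blue and the red parts are larger in the 2 Doxy(+) libraries, where ERBB3-202 holds 44.1 and 51.2 counts, while the grey parts of the groups overlap.

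NRG1 (ENSG00000157168, chr8:31639222-32855666, plus strand), the gene for neuregulin 1, a direct ligand of ERBB3, read 59.7 and 47.8 CPM in Doxy(-) and 32.2 and 35.7 CPM in Doxy(+). Both Doxy(+) libraries lay below both Doxy(-) libraries. The log2 fold change was -0.66 with a standard error of 0.118 (adjusted p = 0.0132 in edgeR), inside the fold limit. Without library Doxy(+) 1 the adjusted p was 0.0664, which missed the threshold. Its leading transcript, NRG1-203, had 210 and 239 counts in Doxy(-) against 119 and 146 in Doxy(+), and NRG1-202 had 166 and 186 against 124 and 109. The 2 code for proteins of 640 and 637 residues, and together with the incomplete model next in count, at 101 and 106 counts against 92.6 and 76.9, they were the best covered of 16 NRG1 transcripts.

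NRG2 (ENSG00000158458, chr5:139846779-140043299, minus strand), the gene for neuregulin 2, was not detectable at this depth. It had 0 and 1 estimated counts in Doxy(-) and 0 in both Doxy(+) libraries, failed the low-count filter and gives no fold change. NRG1 was therefore the neuregulin gene among the members with measurable transcript. Of the neuregulin genes that are not members, NRG4, whose product binds ERBB4, read 2.13 and 2.04 CPM in Doxy(-) and 1.21 and 1.55 CPM in Doxy(+) (log2 fold change -0.55, standard error 0.309, adjusted p = 0.272 in edgeR). NRG3 was not tested, with at most 0.149 CPM.

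Set side by side per length, from matched identifiers, NRG1 headed the 7 ligand genes in Doxy(+). It stood at 30.7 ± 0.665 TPM (SD, n = 2), ahead of EREG at 20.0 ± 1.92 TPM and HBEGF at 16.0 ± 0.884 TPM, with no overlap between neighbours in this order. TGFA followed at 9.48 ± 1.13 TPM. AREG read 13.0 and 1.39 TPM in the 2 libraries, a range that spans TGFA, and BTC stood at 0.765 ± 0.0982 TPM. The first place of NRG1 depends on the measure and on the matching. Its incomplete model, of 886 bases, held 13.5 and 10.7 TPM in Doxy(+), or 44.5% and 34.3% of the gene, which short length favours. The order without that model was not tested. In CPM, EREG stood above NRG1 in both groups. It read 53.7 and 50.5 CPM against 32.2 and 35.7 CPM in Doxy(+). The place of TGFA depends on the matching. With unmatched identifiers that copy its transcripts in length and counts added (below), TGFA read 17.1 and 20.4 TPM in Doxy(+). That was above HBEGF at 16.6 and 15.3 TPM and overlapped EREG at 21.3 and 18.6 TPM. With unmatched identifiers listed near the genes added as well (below), AREG read 37.2 and 40.8 TPM in Doxy(+), above NRG1 at 31 and 31.2 TPM. Whether those identifiers belong to AREG was not tested. In Doxy(-), from matched identifiers, the group means of the leading genes stood in the same order as in Doxy(+). There NRG1 at 49.5 and 40.8 TPM and EREG at 38.1 and 46.2 TPM overlapped and could not be ranked. HBEGF stood at 32.0 ± 0.883 TPM and TGFA at 14.5 ± 1.58 TPM there.

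The sum over the 7 ligand genes was 142 ± 12.5 TPM in Doxy(-) and 84.1 ± 9.10 TPM in Doxy(+). Neuregulins made up 31.7% ± 1.55 of it in Doxy(-) and 36.8% ± 4.77 in Doxy(+), with 32.8% and 30.6% in single libraries against 33.4% and 40.2%. The exact permutation test over 2 against 2 libraries gave a two-sided p of 0.333, the smallest that this design allows. Summed over all transcripts of each gene, the ratio of NRG1 to ERBB3 TPM was 12.3 and 9.17 without doxycycline and 3.18 and 2.5 with it. The summed NRG1 TPM thus exceeded that of ERBB3 in all 4 libraries. These are not figures for the full receptor, since the short ERBB3-202 held 57.5% and 48.7% of ERBB3 TPM in Doxy(+). The long protein-coding forms ERBB3-201 and ERBB3-203 held 10.1% and 5.76%, and 0% and 5.96%, there. With copies and unmatched identifiers listed near these genes added (below, mostly for AREG), the ligand sum was 230 ± 6.38 TPM against 129 ± 2.49 TPM. The neuregulin share was then 21.2% ± 2.26 against 24.1% ± 0.348. Near here means the order of identifiers in the deposited tables, not a position on a chromosome.

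**Figure D3:**
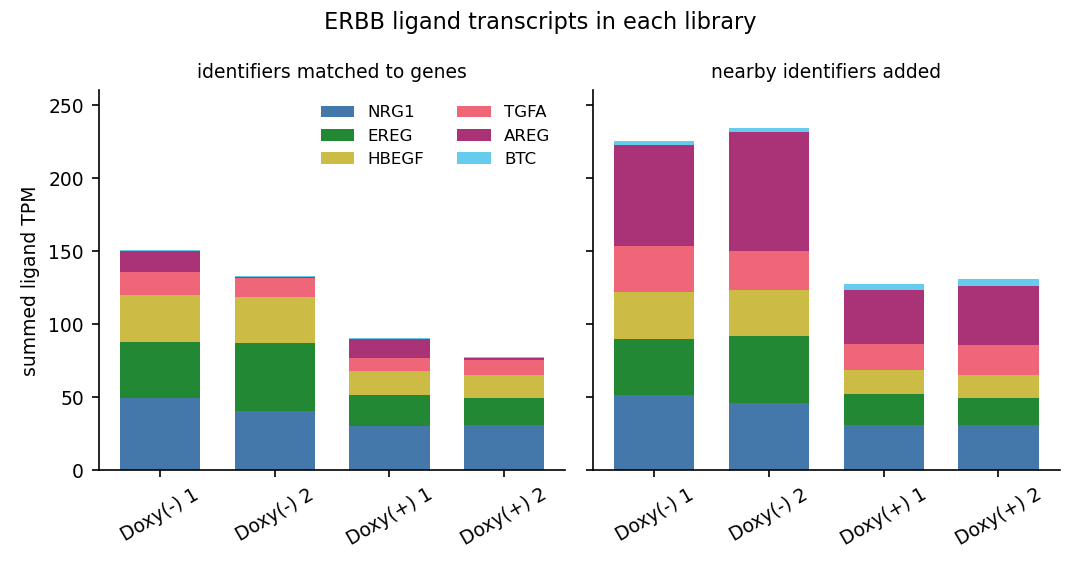
Summed TPM of the ligand genes in each library, stacked by gene, from identifiers matched to genes (left) and with nearby unmatched identifiers added (right). The Doxy(+) bars are shorter in both panels, and the AREG part is large and alike between replicates only on the right. NRG2 is left out, since it is at 0 or 0.0525 TPM.

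EREG and HBEGF were the ligand genes called lower. EREG (ENSG00000124882, chr4:74365145-74388749, plus strand) codes for epiregulin, a ligand of EGFR and ERBB4. It read 117 and 136 CPM in Doxy(-) and 53.7 and 50.5 CPM in Doxy(+), and the groups stood well apart. This was a fall by 1.28 on the log2 scale with a standard error of 0.0854 (adjusted p = 0.000447 in edgeR), or 2.43-fold lower. Nearly all of its reads, 98.1% of its mean count, lay on EREG-201, the transcript for the precursor of 169 residues. Under the alternatives its log2 fold change ran from -1.39 to -1.04 and stayed called in each.

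HBEGF (ENSG00000113070, chr5:140332843-140346603, minus strand) codes for heparin-binding EGF-like growth factor, which binds EGFR and ERBB4. It read 51.7 and 49.3 CPM in Doxy(-) and 25.7 and 23.4 CPM in Doxy(+), with no overlap. The log2 fold change was -1.04 with a standard error of 0.0724 (adjusted p = 0.000521 in edgeR), just past the fold limit. The call ended without library Doxy(+) 2, at a log2 fold change of -0.97, and in both limma fits, on log2(TPM + 1) and log2(TPM + 0.1), at -0.96 and -0.998. The adjusted p stayed under its limit in every alternative, with 0.0129 as the highest. HBEGF-201, coding for 208 residues, held 99.2% of its mean count.

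The stretch of 250 bases before the annotated start of these 2 genes, from RefSeq on GRCh38.p14, is shown because they are the ligands that fell past the fold limit. Capitals mark the letters TATAAA in EREG and GGGCGG, a GC box, in HBEGF, searched on both strands, so that CCGCCC is the same motif read from the other strand. The EREG stretch is chr4:74364895-74365144 on the plus strand and the HBEGF stretch is chr5:140346604-140346853 on the minus strand.
EREG: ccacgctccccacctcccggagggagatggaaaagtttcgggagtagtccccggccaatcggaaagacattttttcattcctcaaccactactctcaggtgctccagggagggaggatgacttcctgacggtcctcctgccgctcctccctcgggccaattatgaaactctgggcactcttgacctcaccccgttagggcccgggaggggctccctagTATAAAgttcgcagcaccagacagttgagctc
HBEGF: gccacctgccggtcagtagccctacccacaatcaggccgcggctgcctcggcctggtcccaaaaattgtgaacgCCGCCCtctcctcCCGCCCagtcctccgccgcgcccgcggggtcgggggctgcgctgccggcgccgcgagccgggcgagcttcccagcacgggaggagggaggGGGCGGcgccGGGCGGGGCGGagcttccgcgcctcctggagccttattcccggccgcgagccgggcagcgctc
The TATAAA of EREG began 32 bases before the start, and 10.7% of 35116 RefSeq promoter stretches of the same length hold that motif. HBEGF held 5 matches of GGGCGG, at 176, 163, 73, 63 and 58 bases before the start, the last 2 sharing a base, and 42.6% of all stretches hold at least 1. Neither stretch held CACGTG, an E-box form bound by TFE3 and its relatives, or TGANTCA, the motif of AP-1 factors, which 6.34% and 6.57% of all stretches hold. These are matches of letters and say nothing of binding. The table held 13 stretches for 8 of the 10 members. GGGCGG was in 9 of the 13, TATAAA in 2, TGANTCA in 1 and CACGTG in 0.

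TGFA (ENSG00000163235, chr2:70447284-70554193, minus strand), the gene for transforming growth factor alpha, an EGFR ligand, read 36.6 and 35.4 CPM in Doxy(-) and 23.9 and 23.8 CPM in Doxy(+). Replicates differed by little in either group and the groups did not overlap. It had a log2 fold change of -0.60 with a standard error of 0.0681 (adjusted p = 0.00279 in edgeR), inside the fold limit. In both limma fits the adjusted p missed its threshold, at 0.0842 and 0.0831. TGFA-201, for 160 residues, carried 95.2% of its mean count. TGFA also has unmatched identifiers with the length and counts of its own transcripts, TGFA-201 included. Adding these copies gave the gene 30.4 and 26.6 TPM in Doxy(-) and 17.1 and 20.4 TPM in Doxy(+), in place of 15.6 and 13.4 against 8.68 and 10.3, and left the log2 fold change at -0.59.

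AREG (ENSG00000109321, chr4:74445136-74455005, plus strand), the gene for amphiregulin, an EGFR ligand, gave values that replicates did not share. It read 11.3 and 0.494 CPM in Doxy(-) and 9.99 and 1.03 CPM in Doxy(+). The libraries numbered 1 were high and those numbered 2 low in both groups, so the groups overlapped. The log2 fold change was -0.08 with a standard error of 1.27 (adjusted p = 0.976 in edgeR), which leaves its direction undetermined.

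Looking next to AREG in the deposited tables, a choice made after its values were seen, showed where similar counts lay. The unmatched identifier ENST00000380846 is 1239 bases long, against 1240 for AREG-201, the main AREG transcript. It stands beside an identifier with the length and counts of AREG-203. It had 553 and 792 estimated counts in Doxy(-) and 200 and 324 in Doxy(+), while AREG-201 had 146 and 0 against 128 and 13.0. A shorter one listed next to AREG, ENST00000264487 of 969 bases, had 7.7 and 118 counts against 30.2 and 64.6. The library with the fewest counts on AREG-201 had the most on both of these.

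With both of these and the copy of AREG-203 added, AREG read 53.6 and 61.1 CPM in Doxy(-) and 27.4 and 29.4 CPM in Doxy(+). Replicates then lay close together and the groups did not overlap. The log2 fold change became -1.02 with a standard error of 0.0844 (adjusted p = 0.000799 in edgeR), and it ran from -1.11 to -0.92 when single libraries were left out. Per length AREG would then head the ligands, at 69.1 and 81.5 TPM in Doxy(-) and 37.2 and 40.8 TPM in Doxy(+), ahead of NRG1. The files do not name the gene of these identifiers, and whether they are copies of AREG was not tested.

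**Figure D4:**
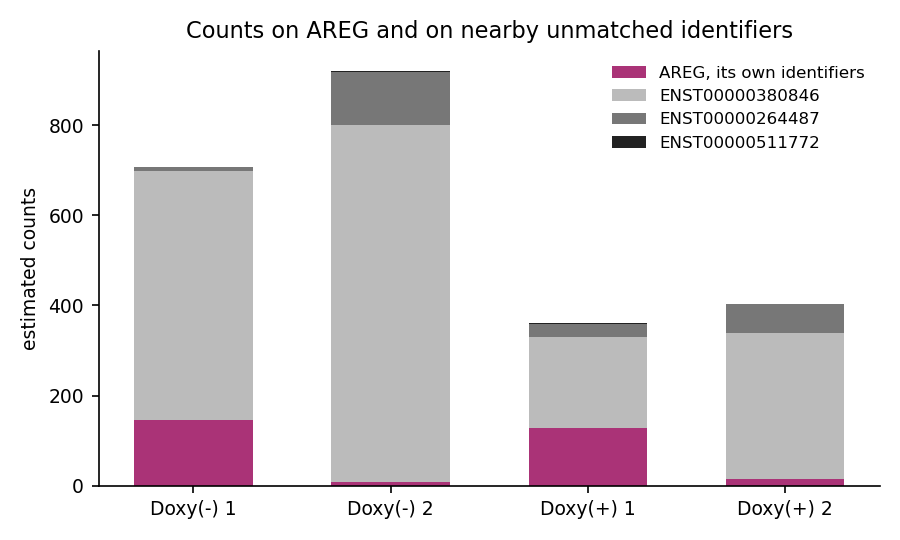
Estimated counts on AREG (purple) and on 3 unmatched identifiers listed near it (greys, the darkest with at most 1.65 counts) in each library, stacked. The purple part is 146, 7.26, 129 and 13.9 from left to right, while the whole bars are 706 and 918 in Doxy(-) and 360 and 403 in Doxy(+).

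BTC (ENSG00000174808, chr4:74744759-74794523, minus strand) codes for betacellulin, a ligand of EGFR and ERBB4. Its estimated counts were 20.0 and 10.5 in Doxy(-) against 16.5 and 14 in Doxy(+), so the groups overlapped. Its log2 fold change was 0.05 with a standard error of 0.487 (adjusted p = 0.956 in edgeR), which at this depth resolves no difference. With copies and nearby unmatched identifiers added, as for AREG, the sum was 2.97 and 2.66 TPM in Doxy(-) and 3.83 and 4.35 TPM in Doxy(+). This stood in place of 0.818 and 0.646 against 0.696 and 0.835, with a log2 fold change of 0.29 (adjusted p = 0.525 in edgeR). Some of these identifiers were taken only because they are listed next to a copy, and whether they belong to BTC was not tested. EREG, AREG, BTC and EPGN, the gene for epigen, lie together within 486 kb of chromosome 4. EREG was called lower and BTC was not, while EPGN, at 0.136 to 0.223 CPM, was not tested. AREG was not called from its matched identifiers, where its direction was undetermined. With nearby identifiers added it was called lower (log2 fold change -1.02, adjusted p = 0.000799 in edgeR). EGF itself, no member, read 6.36 and 6.87 CPM in Doxy(-) and 8.08 and 7 CPM in Doxy(+), with a log2 fold change of 0.19 and a standard error of 0.161 (adjusted p = 0.479 in edgeR).

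Of the 2 inhibitors, ERRFI1 (ENSG00000116285, chr1:8004404-8026309, minus strand) was the more abundant per length, at 107 ± 1.65 TPM (SD, n = 2) in Doxy(-), where LRIG1 stood at 2.27 ± 0.0312 TPM. It codes for MIG6, a cytoplasmic protein that binds ERBB kinase domains and is itself induced by EGFR signalling. It read 203 and 201 CPM in Doxy(-) and 159 and 165 CPM in Doxy(+), a small step with no overlap. This was a log2 fold change of -0.32 with a standard error of 0.0371 (adjusted p = 0.0029 in edgeR), and in both limma fits the adjusted p missed its threshold, at 0.0648 and 0.0686. Its main transcript ERRFI1-201, for 462 residues, carried 89.5% of its mean count.

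LRIG1 (ENSG00000144749, chr3:66378797-66501263, minus strand) codes for a membrane protein that promotes degradation of ERBB receptors. It read 6.76 and 6.82 CPM in Doxy(-) and 5.36 and 4.49 CPM in Doxy(+). The groups did not overlap, and the log2 fold change was -0.46 with a standard error of 0.179, which missed the threshold (adjusted p = 0.131 in edgeR, unadjusted p = 0.0408). LRIG1-201, for the protein of 1093 residues, had 64.9 and 69.3 counts in Doxy(-) and 28.2 and 56.2 in Doxy(+), where 26.1 counts of the first library lay on LRIG1-202. LRIG1 shares 2669 exonic bases with SLC25A26 on the opposite strand, and whether the counting used strand is not stated, so its level is less certain.

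**Figure D5:**
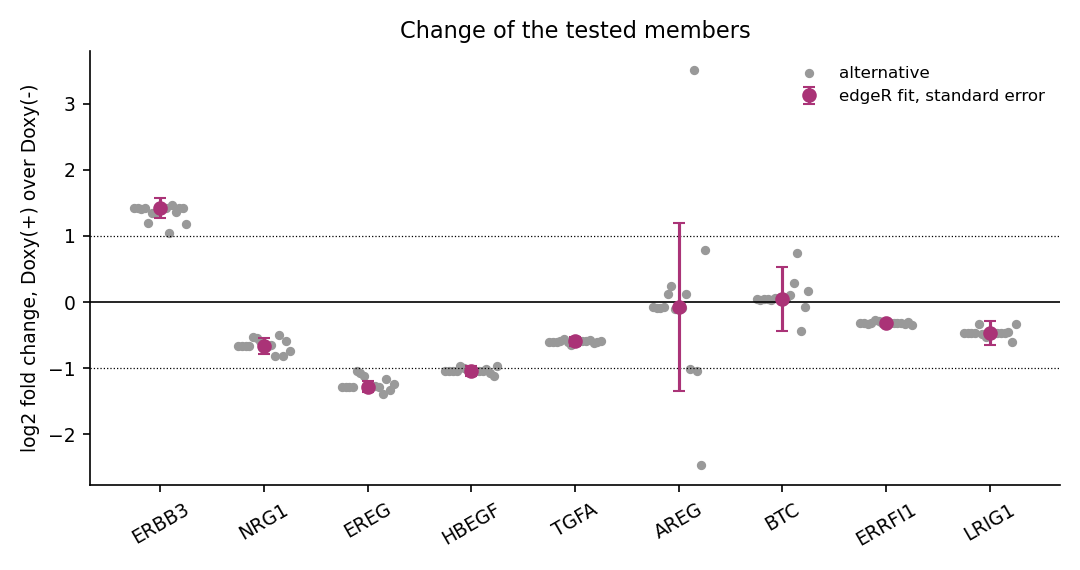
Log2 fold change of Doxy(+) over Doxy(-) for each tested member, from edgeR with its standard error (purple) and under each alternative (grey), with dotted lines at the fold limit of 1. ERBB3 stays above the upper line and EREG below the lower one in every alternative. AREG runs from -2.47 to 3.50.

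The other genes listed for the pathway numbered 81, of which 74 were tested. At an adjusted p under 0.05, 8 were higher and 9 lower, beside 9.76% and 9.53% of all genes, and 0 were called higher and 1 lower. Their median log2 fold change was -0.01. Neither tested receptor passed. EGFR read 454 and 469 CPM in Doxy(-) and 434 and 430 CPM in Doxy(+) (log2 fold change -0.10, adjusted p = 0.0852 in edgeR). ERBB2, the preferred partner of ERBB3, read 77.7 and 72.7 CPM against 89.1 and 81.0 CPM (log2 fold change 0.18, adjusted p = 0.125 in edgeR). ERBB4 was at or under 0.372 CPM in every library and was not tested.

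Among the 10 genes for shedding of ligands, 2 were higher and 2 lower by adjusted p (9.76% and 9.53% of all genes). The called gene was ADAM12, a sheddase that can release HBEGF, with 42.7 and 42.8 CPM in Doxy(-) against 18.9 and 22.9 CPM in Doxy(+). This gave a log2 fold change of -1.03 with a standard error of 0.0987 (adjusted p = 0.00148 in edgeR), and it was -0.90 without library Doxy(+) 1, inside the fold limit. The fold limit was also missed with length-scaled counts (-0.83), and both limits in both limma fits (-0.74 and -0.81, adjusted p = 0.0791 and 0.0809). ADAM10, the main sheddase of EGF and betacellulin, fell from 195 and 195 CPM to 162 and 164 CPM (log2 fold change -0.25, adjusted p = 0.00522 in edgeR). ADAM17, the sheddase of most other EGFR ligands and of NRG1, and ADAM9 rose. ADAM17 read 101 and 103 CPM against 130 and 125 CPM (adjusted p = 0.00576), and ADAM9 23.8 and 22.3 CPM against 31.4 and 32.2 CPM (adjusted p = 0.00954).

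Of 34 adaptors and kinases, 2 were higher and 2 lower by adjusted p (9.76% and 9.53% of all genes), and PLCG1 had the smallest p. PLCG1, a phospholipase that binds active EGFR, read 195 and 202 CPM in Doxy(-) and 260 and 256 CPM in Doxy(+) (log2 fold change 0.38, adjusted p = 0.00145 in edgeR). Of the 21 tested genes of receptor turnover and dephosphorylation, 2 were higher and 3 lower, beside the same shares of all genes. PTPN1, a phosphatase of EGFR, read 156 and 152 CPM against 191 and 184 CPM (log2 fold change 0.28, adjusted p = 0.00541). The ubiquitin ligase gene NEDD4 read 294 and 296 CPM against 252 and 255 CPM (log2 fold change -0.22, adjusted p = 0.00652).

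Among the 8 genes for transcription factors known to act on ERBB3, 5 were tested. By adjusted p, 2 were higher and 2 lower (9.76% and 9.53% of all genes). FOXO4, of the FOXO family that raises ERBB3 when phosphoinositide 3-kinase signalling is low, read 13.0 and 10.3 CPM in Doxy(-) and 20.1 and 19.7 CPM in Doxy(+) (log2 fold change 0.78, adjusted p = 0.0107 in edgeR). FOXO3 read 118 and 116 CPM against 132 and 136 CPM (log2 fold change 0.19, adjusted p = 0.0273 in edgeR). The 2 lower were TFAP2A and ZNF217. TFAP2A read 8.45 and 7.63 CPM against 4.39 and 5.24 CPM (log2 fold change -0.73, adjusted p = 0.0346 in edgeR). ZNF217 read 125 and 130 CPM against 112 and 114 CPM (log2 fold change -0.18, adjusted p = 0.0335 in edgeR). Whether any of these changes bears on ERBB3 was not tested. The genes with the pattern most like that of ERBB3, by Euclidean distance in log2 CPM over 4 libraries, were BAAT at 0.155, MAP1A at 0.35 and OSBP2 at 0.361. BAAT, a bile acid conjugating enzyme, read 4.03 and 3.61 CPM in Doxy(-) and 10.6 and 10.9 CPM in Doxy(+). MAP1A, a microtubule-associated protein, read 4.26 and 4.69 CPM against 9.4 and 10.5 CPM, and OSBP2, an oxysterol-binding protein, 4.47 and 4.32 CPM against 9.81 and 13.4 CPM. The measure compares level and change together over few libraries and was not tested.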

How the data were processed

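RNA of 2 Doxy(-) and 2 Doxy(+) cultures was sequenced from TruSeq stranded mRNA libraries. According to the study's methods and the submitters' processing notes, the authors trimmed single-end reads with Trim Galore 0.6.6 and cutadapt 2.5 and aligned them to hg38 with STAR 2.7.9a, and the methods name RSEM for quantification. The deposited tables have kallisto's columns instead, and the quantifier's version, Ensembl release and use of strand are not given in the sources used here. The authors deposited an estimated count per transcript, not normalized, with ambiguous reads shared out among transcripts. The authors also deposited TPM values per transcript, scaled to 1000000 per library.

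The 180253 identifiers were matched to GENCODE release 44 (hg38), whose coordinates are used. Of these 150691 (83.6%) matched 34080 genes, and unmatched ones, with 9.66% to 9.89% of a library's counts, stayed out of library sizes and tests. Counts were summed per gene, rounded, filtered with filterByExpr, scaled by TMM and tested with edgeR 4.0.16 (glmQLFit, glmQLFTest, R 4.3.3) with group as the only term and Benjamini-Hochberg adjustment. Standard errors follow from the F statistic. CPM uses the TMM-scaled library. The fit was tested on simulated data. Levels of different genes are compared in TPM, except in the distance to ERBB3 (log2 CPM) and in an alternative neuregulin share from CPM.

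Members and lists were chosen with earlier results of these data known. Named are all members, every called pathway gene, the 2 tested genes of smallest p in each pathway list, the 3 genes nearest ERBB3 and the leading transcripts (up to 3) of a member. The result of 1 gene under this rule is not reported here. Names outside that rule (TFE3, PRCC, markers, ADAM9, ADAM17, ADAM19, NRG3, EPGN, ERBB4, TFAP2A, ZNF217 and the sum of long ERBB3 forms) were chosen after their values were seen. Alternatives were RLE factors, DESeq2 1.42.0, other low-count filters, limma 3.58.1 on log2(TPM + 1) or log2(TPM + 0.1), length-scaled counts, copies added (unmatched identifiers with a transcript's length and counts), unmatched identifiers tested beside genes, a replicate block and leaving out each library. Adding copies together with neighbouring unmatched identifiers, and removing ERBB3-202, were chosen after seeing the data. Promoter stretches are RefSeq's on GRCh38.p14, searched on both strands. ERBB3 and NRG1 have no entry.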

Additional observations from a re-analysis of the deposited data

How the results depend on the processing

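ERBB3 kept its call in all 16 alternatives (log2 fold change 1.05 to 1.48, the lowest with copies and nearby identifiers added) and EREG in all 15 (-1.39 to -1.04). HBEGF kept its adjusted p in all 15 and stayed past the fold limit in 12. Members called lower numbered 1 in both limma fits and 1 to 2 when single libraries were left out, and members lower by adjusted p alone numbered 3 in both limma fits and 4 to 5 when libraries were left out. With copies and nearby identifiers added, AREG joined them, giving 3 called lower and 6 lower by adjusted p. NRG1 missed the adjusted p with unmatched identifiers beside the genes (-0.66, adjusted p = 0.0783), and its leave-one-out values ran from -0.82 to -0.50. TGFA missed it in limma on log2(TPM + 1) and log2(TPM + 0.1) (-0.56 and -0.61), as did ERRFI1 (-0.28 in both), with adjusted p of 0.0648 to 0.0842. AREG turned to 0.12 and 0.24 in these limma fits, was -1.02 with nearby identifiers added and ran from -2.47 to 3.50 when libraries were left out. BTC ran from -0.44 to 0.74 when libraries were left out. Other pathway genes called lower numbered 0 in both limma fits and with length-scaled counts, and 0 to 1 when libraries were left out. Those called higher were 0 to 1, the 1 being ADAM19 without Doxy(+) 1, where the other library read 8.34 CPM. The neuregulin share in Doxy(-) was 19.6% from CPM, 28.8% with copies added and 21.2% with nearby identifiers added, and in Doxy(+) 24.1% from CPM and 24.1% with nearby identifiers added. The cause of these shifts was not tested.

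The labels number libraries 1 and 2 in both groups. Deviations of the libraries numbered 1 correlated at -0.0147, so the numbers are not shown to pair them. With the replicate number as a block, AREG turned to 0.13 (adjusted p = 0.815), and no other member changed direction or its side of the adjusted p. NRG2 gave no value in the comparison, since it failed the filter. With 2 libraries per group, low members such as BTC, NRG2 and single ERBB3 transcripts are limited by depth, and no library without the transgene was compared.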
